A study of Mus musculus with 24 samples.

Results

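Sox proteins are transcription factors that bind DNA through an HMG box, which bends the helix, and they fall into groups by the sequence of that box. The SoxF group works in endothelium, whereas the genes described here belong to groups best known from other lineages. They are Sox1, Sox2 and Sox14 of the SoxB group (neural progenitors and neurons, with Sox2 also in pluripotent cells and airway epithelium), Sox4 and Sox11 of SoxC (progenitors of many tissues), Sox5 and Sox6 of SoxD (cartilage and neurons, with Sox6 also in erythroid cells and muscle), and Sox8, Sox9 and Sox10 of SoxE (cartilage, testis and neural crest). Many genes of this kind carry H3K27me3, the mark that Polycomb repressive complex 2 lays down at silent developmental genes, in cells of another lineage. The 10 genes were chosen by name, out of 20665 protein-coding genes of chromosomes 1 to 19, and all 10 were found in the gene table. They, the other Sox genes and the partner genes named below were chosen with earlier results of these data known.

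The data were lists of histone mark peaks in lung endothelial cells sorted by flow cytometry from Dnmt3a knockout mice (KO) and from wild-type mice (WT). Dnmt3a encodes a de novo DNA methyltransferase. Peaks came from ACT-seq, in which an antibody guides a transposase to cut and tag the DNA beside a mark, with yeast nuclei added as a spike-in. The 24 samples form 8 groups of 3, KO and WT for each of H3K4me3 (promoters), H3K27ac (active promoters and enhancers), H3K4me1 (enhancers and promoter flanks) and H3K27me3. The labels give no strain, age, sex, promoter for a Cre or time of deletion, so that how and in which cells Dnmt3a was deleted is not given in the sources used here. Each group had 1 peak list, with positions and widths but no height, depth or value per sample, so that there is no spread between replicates and no test between KO and WT. Every difference given here is one between 2 lists.

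The 8 lists held 313065 peaks. As a check of the sort, H3K4me3 lay within 1000 bp of an annotated gene end at 8 of 8 endothelial marker genes in KO and 7 of 8 in WT. Of all genes, 52.3% had it there in KO and 46.1% in WT. H3K4me3 lay at none of 8 leukocyte markers in either genotype. Of 8 epithelial markers, 4 had H3K4me3 in KO (Epcam, Foxj1, Scgb1a1 and Sftpc) and 1 in WT (Sftpc), and of 8 mural and fibroblast markers 2 had it in KO (Acta2 and Myh11) and none in WT. H3K27ac lay at 4 epithelial markers in KO and 3 in WT, and H3K4me1 at 2 and 3. At mural and fibroblast markers H3K27ac lay at 1 in KO and 2 in WT, and H3K4me1 at 2 and 3. Of the leukocyte markers, 1 had H3K27ac and 1 had H3K4me1 in each genotype. The shares of all genes were 47.7% in KO and 51.5% in WT for H3K27ac, and 39.4% and 46.6% for H3K4me1. H3K27me3 lay at an end of 4 of the 8 endothelial markers in KO and 3 in WT, against 42.7% and 37.9% of all genes. What part other cells have in the values of the Sox genes was not tested. The KO list was longer than the WT list for H3K4me3 (22724 and 14984 peaks) and H3K27me3 (31022 and 20918), shorter for H3K27ac (44484 and 81112) and about equal for H3K4me1 (48458 and 49363).

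Promoter sequences show what lay under the peaks. RefSeq (GRCm38.p6, which is mm10) gave promoters for 8 of the 10 genes, and the 250 bases before the start are printed for a gene of each main pattern, 5′ to 3′ on the strand of the gene, with CpG dinucleotides, the sites that DNA methyltransferases act on, in capitals. Sox2 stands for genes under H3K27me3, Sox8 for H3K27me3 with a difference in H3K4me3, Sox4 for a promoter with the 3 active marks in both genotypes and H3K27me3 in WT only, and Sox11 for a promoter with all 4 marks in both.
Sox2, chr3:34649745-34649994, plus strand: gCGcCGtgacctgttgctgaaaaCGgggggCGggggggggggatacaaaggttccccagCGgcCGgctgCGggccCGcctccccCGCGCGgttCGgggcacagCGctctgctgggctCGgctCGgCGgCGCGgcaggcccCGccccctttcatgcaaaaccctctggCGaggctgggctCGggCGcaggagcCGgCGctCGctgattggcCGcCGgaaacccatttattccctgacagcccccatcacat
Sox8, chr17:25570687-25570936, minus strand: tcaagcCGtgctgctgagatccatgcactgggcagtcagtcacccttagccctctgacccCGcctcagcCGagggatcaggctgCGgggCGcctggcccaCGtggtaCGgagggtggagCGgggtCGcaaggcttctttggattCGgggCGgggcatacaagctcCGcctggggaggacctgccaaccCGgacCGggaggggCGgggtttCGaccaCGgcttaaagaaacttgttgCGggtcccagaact
Sox4, chr13:28953700-28953949, minus strand: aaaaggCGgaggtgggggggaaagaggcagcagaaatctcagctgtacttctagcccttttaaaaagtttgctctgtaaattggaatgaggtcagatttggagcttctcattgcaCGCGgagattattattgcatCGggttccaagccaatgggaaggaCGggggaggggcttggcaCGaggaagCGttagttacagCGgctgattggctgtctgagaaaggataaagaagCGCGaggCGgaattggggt
Sox11, chr12:27342719-27342968, minus strand: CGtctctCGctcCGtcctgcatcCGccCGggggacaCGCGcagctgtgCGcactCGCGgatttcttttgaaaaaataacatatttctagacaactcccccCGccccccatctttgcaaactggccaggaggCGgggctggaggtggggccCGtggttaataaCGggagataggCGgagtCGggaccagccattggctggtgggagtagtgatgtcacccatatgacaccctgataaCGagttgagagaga
These windows held 27 CpG in Sox2, 18 in Sox8, 11 in Sox4 and 17 in Sox11, against a median of 6 over 32851 promoters of the same length. Sox1 had 29 CpG and Sox14 had 23. The annotated promoters of the SoxD genes were poorer in CpG, with 3 in Sox5 and 1 to 10 in the 6 promoters of Sox6. The core Sox motif ACAAT, or ATTGT on the other strand, was found in 4 of the 13 promoters of the 8 genes. The share of all promoters in the table was 27.7%. These 4 were promoters of Sox5 and Sox6.

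Over the gene and 5000 bp on each side, called the window from here on, H3K27me3 was the mark that almost all of these genes had in common. In KO 9 of the 10 windows held an H3K27me3 peak, against 55% of all genes, and in WT 10 of 10 did, against 49.6% of all genes. H3K4me3 was found at 5 genes in KO (63.4% of all genes) and 6 in WT (56.2%), H3K27ac at 5 in KO (61.8%) and 5 in WT (69.4%), and H3K4me1 at 5 in KO (57.5%) and 8 in WT (62.8%). H3K27me3 covered more bases than the union of the 3 active marks at 7 genes in KO (Sox1, Sox2, Sox14, Sox5, Sox8, Sox9 and Sox10), where the share of all genes was 20.3%. In WT it did so at 6 genes, the same ones without Sox5, where the share of all genes was 14.7%. H3K27me3 with no peak of any active mark was the state of 5 genes in KO (7.97% of all genes) and of 2, Sox14 and Sox10, in WT (5.25% of all genes). These were all among the 8 members under 10000 bp long, and of all genes under that length 8.68% had this state in KO and 6.65% in WT.

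Most members with a mark had it in both genotypes. The exceptions were all WT-only: H3K4me1 at Sox1, Sox2 and Sox8 (3 genes, where 7.33% of all genes had it in WT only and 1.95% in KO only), H3K4me3 at Sox8 and H3K27me3 at Sox4. The count of KO-only members was 0 for each mark, against 9.23% of all genes for H3K27me3 and 8.54% for H3K4me3. For H3K27ac no member was KO-only (1.47% of all genes) or WT-only (9.05%).

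**Figure D1:**
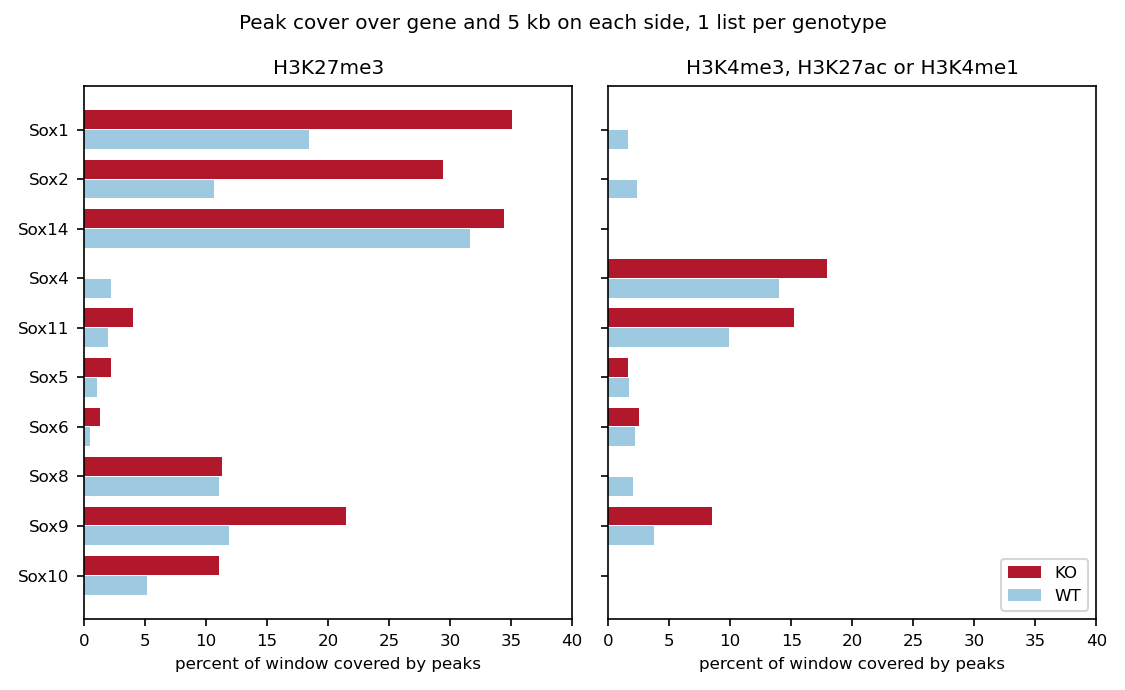
Percent of each window (gene and 5 kb on each side) covered by H3K27me3 peaks (left) and by peaks of H3K4me3, H3K27ac or H3K4me1 together (right), with KO above WT for each gene. The 3 SoxB genes and Sox9 have long H3K27me3 bars, Sox4 and Sox11 have long bars of active marks, and Sox5 and Sox6 have low values of both over their long windows.

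The SoxB genes had the largest shares of their windows under H3K27me3 among the 10 genes in KO, and almost no active mark. In WT Sox9 and Sox8 stood above Sox2. Sox1, a neural progenitor factor (chromosome 8, 12395519 to 12399555), had 4919 bp of H3K27me3 in KO, 35.0% of its window, and 2583 bp in WT, 18.4%. The ratio was 1.90, and 5.61 over the gene with no flank. The number of peaks was lower in KO, 5 against 7 in WT, and every one of them overlapped a peak of the other genotype. At the start of Sox1 the KO peak spanned 579 bp (12395178 to 12395756) and covered all 250 bases of the promoter, whereas the WT peak spanned 136 bp and covered 46 of them. A WT H3K4me1 peak of 229 bp lay at the same place, and KO had none.

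Sox2, a factor of pluripotent, neural and airway progenitors (chromosome 3, 34649995 to 34652461), had 3665 bp of H3K27me3 in KO, 29.4% of the window, and 1327 bp in WT, 10.6%. The ratio, KO over WT, was 2.76 over the window, 1.90 with no flank and 1.96 with flanks of 10000 bp. In KO a peak of 2629 bp (34648751 to 34651379) ran across the promoter and the start of the gene. In WT there were peaks of 353 bp and 728 bp at that place, with the printed promoter lying in the gap between them: 250 of its bases were under H3K27me3 in KO and 0 in WT. H3K4me1 was listed in WT alone, at a peak of 292 bp (34649332 to 34649623) that overlapped the WT H3K27me3 peak of 353 bp. Sox2 lies within the noncoding gene Sox2ot, and Sox1 overlaps Sox1ot, so peaks over these windows can belong to either gene of the pair.

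Sox14, known from ventral neuron types (chromosome 9, 99874106 to 99876170), differed little between the lists. It had 5 H3K27me3 peaks in KO and 5 in WT, covering 4149 bp and 3818 bp, with a ratio of 1.09. No active mark was listed over its window in either genotype. Its promoter, despite 23 CpG, had no peak in either genotype, since the H3K27me3 peaks lay within the gene and on both sides of it.

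Of the SoxE genes, Sox10 and Sox8 were under H3K27me3 and Sox9 had all 4 marks. Sox10, the neural crest and glial factor (chromosome 15, 79154913 to 79164490), had 3 H3K27me3 peaks and 2164 bp in KO, against 1 peak and 1004 bp in WT, a ratio of 2.16 (5.14 with no flank). The WT peak (79164299 to 79165302) and the widest KO peak (79164200 to 79165668) lay at the upper annotated end, and the other 2 KO peaks, of 497 and 198 bp, lay inside the gene. Sox10 had no active peak in either genotype. Its window overlaps that of Polr2f, its protein-coding neighbour.

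Sox8, a factor of testis, glia and muscle (chromosome 17, 25565893 to 25570686), had a single wide H3K27me3 peak over its start in each genotype, of 1669 bp in KO and 1637 bp in WT. Within it, WT had an H3K4me3 peak of 285 bp (25570691 to 25570975) and an H3K4me1 peak of 215 bp, and KO had neither. H3K4me3 thus covered 0 of the 250 promoter bases in KO and 246 in WT. It was the only gene of the 10 with H3K4me3 in a single genotype, and 1.39% of all genes had it in WT only. The noncoding gene Cerox1 starts in the same stretch, and the peak can belong to it.

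Sox9, the regulator of cartilage and of testis and also of lung epithelial progenitors (chromosome 11, 112782210 to 112787757), had every mark at its lower annotated end in both genotypes, with H3K4me3 and H3K27ac wider in KO. H3K4me3 there spanned 842 and 103 bp in KO (945 bp in all) and 208 and 140 bp in WT (348 bp in all), a ratio of 2.72. H3K27ac spanned 260 bp in KO and 155 bp in WT, and H3K4me1 133 bp and 128 bp. H3K27me3 at the same end was alike, with 963 bp in KO and 972 bp in WT. Over the window H3K27me3 covered 3341 bp in KO and 1846 bp in WT. Of the 5 KO peaks, 3 were KO-only (1012, 859 and 296 bp), and of the 3 WT peaks, 1 of 308 bp was WT-only.

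At both SoxC genes the active marks covered more bases than H3K27me3 in both genotypes, with wide H3K4me3 peaks over the start. Sox4, which acts in progenitors, in lymphocytes and in many tumours (chromosome 13, 28948919 to 28953699), had an H3K4me3 peak over its start of 1508 bp in KO (28952474 to 28953981) and 1155 bp in WT (28952823 to 28953977). H3K27ac there spanned 1015 bp in KO and 687 bp in WT, and H3K4me1 spanned 688 bp and 479 bp. The active marks together covered 2651 bp in KO and 2070 bp in WT. H3K27me3 was listed in WT only, as a peak of 331 bp (28953658 to 28953988) on the H3K4me3 and H3K27ac peaks, so that the 250 promoter bases were all under it in WT and 0 were in KO. Sox4 was the only gene of the 10 with H3K27me3 in WT alone, as had 3.84% of all genes. A further site upstream of the start, with H3K4me3 (835 bp in KO, 701 bp in WT) and H3K27ac (534 bp and 663 bp), was shared by both genotypes.

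Sox11, a factor of immature neurons and of the embryo (chromosome 12, 27334268 to 27342718), had peaks of all 4 marks over its promoter in both genotypes. H3K4me3 spanned 1877 bp in KO and 1429 bp in WT, H3K27ac 613 bp and 1343 bp, H3K4me1 483 bp and 592 bp, and H3K27me3 737 bp and 367 bp. The widths of H3K4me3 and H3K27me3 were thus greater in KO and those of H3K27ac and H3K4me1 greater in WT. Each mark covered all 250 bases printed above in both genotypes. Overlap of H3K27me3 with H3K27ac was frequent in the lists at large, at 27.9% of all KO and 41.4% of all WT H3K27me3 peaks. The lists do not show whether the marks lay on the same allele or in the same cells.

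**Figure D2:**
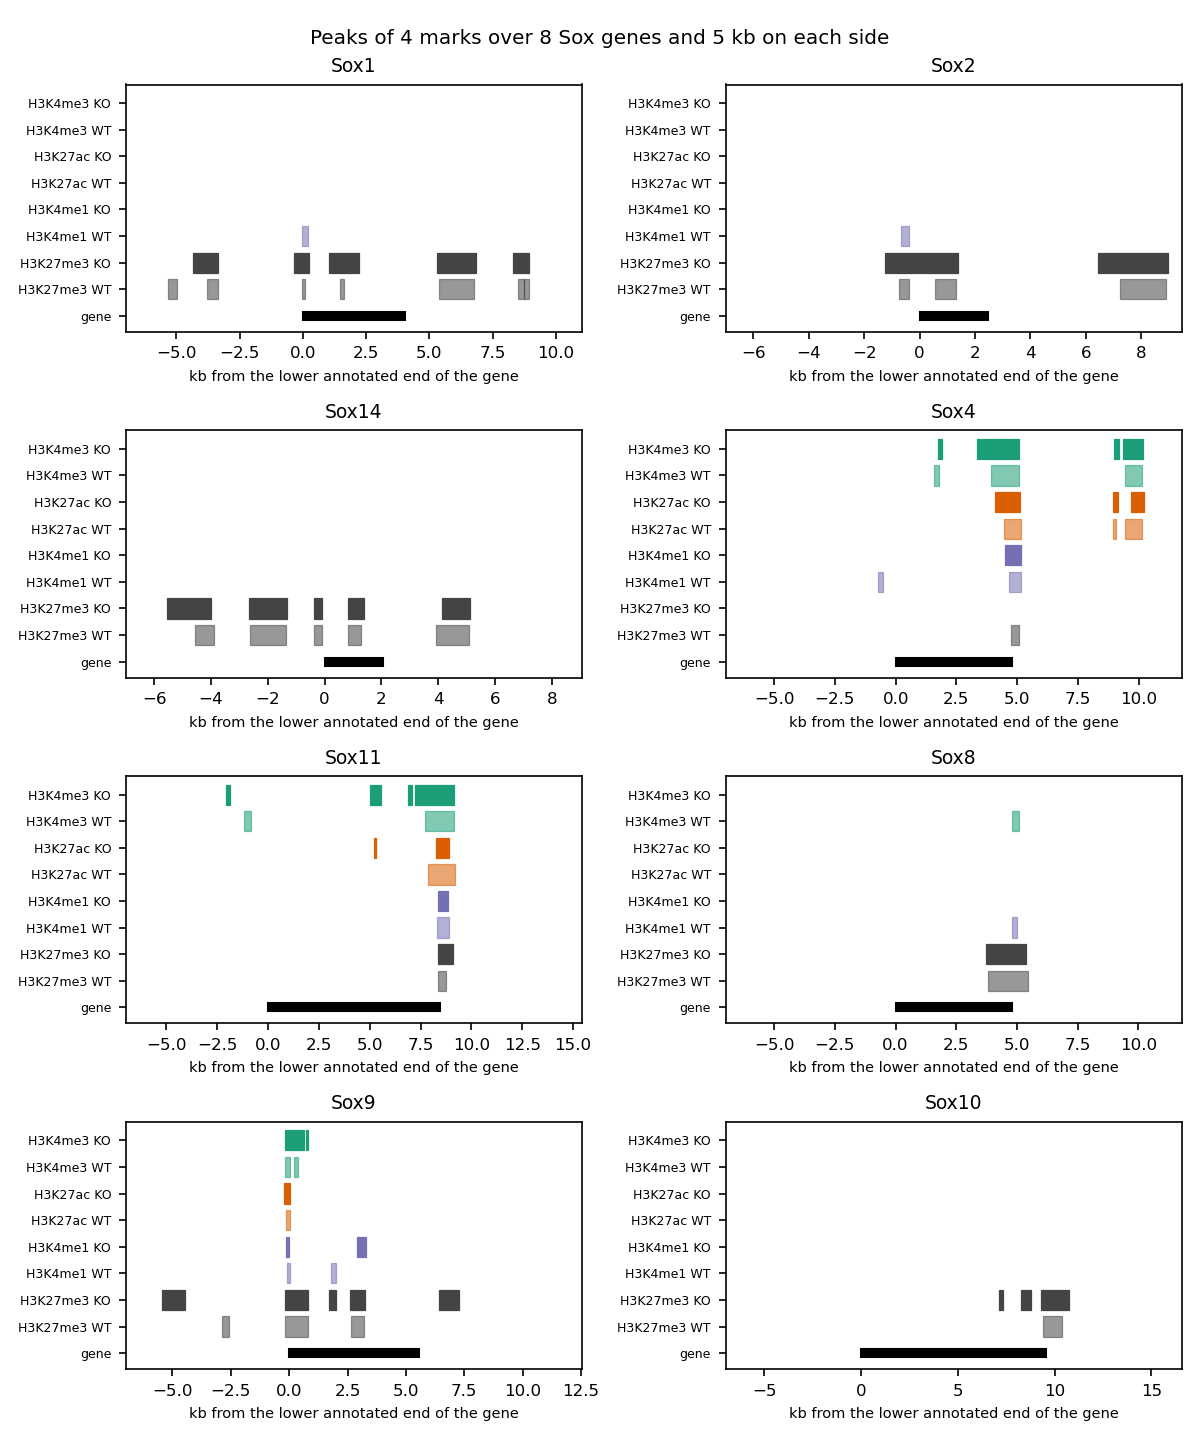
Peaks of H3K4me3, H3K27ac, H3K4me1 and H3K27me3 over the 8 short Sox genes, with KO (dark) above WT (light) for each mark, the gene as a black bar, and distance in kb from its lower annotated end. Sox1, Sox2, Sox14 and Sox10 show H3K27me3 almost alone, and at Sox4 and Sox11 the active marks stack over the upper end.

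The SoxD genes are long, 954 kb for Sox5 and 570 kb for Sox6, and held most of the peaks. Both pair with Sox9 in cartilage as coactivators that lack a transactivation domain of their own. Sox5 (chromosome 6, 143828425 to 144782287) had 34 H3K27me3 peaks and 20853 bp in KO, against 21 peaks and 10361 bp in WT. Its active marks together covered 15824 bp in KO and 16794 bp in WT, so that H3K27me3 over active cover was 1.32 in KO and 0.617 in WT. Sox6 (chromosome 7, 115470872 to 116040776) had 14 H3K27me3 peaks and 7490 bp in KO, against 5 peaks and 2909 bp in WT. Its active marks covered 14563 bp in KO and 12628 bp in WT, and the same ratio was 0.514 in KO and 0.230 in WT.

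Among the 216 genes of at least 500 kb, Sox5 stood near the top for H3K27me3 in both genotypes. It had 21.6 bp per kb in KO, above 213 of the 216 genes, and 10.7 bp per kb in WT, above 214 of them, where the medians were 2.60 and 1.68 bp per kb. Sox6 had 12.9 bp per kb in KO, above 202 genes, and 5.02 in WT, above 190. H3K4me1 was also frequent, with 19.2 bp per kb at Sox6 in KO and 11.5 in WT, against medians of 2.98 and 2.99. H3K4me3 at Sox6 in KO, at 6.11 bp per kb, stood above 203 genes, where the median was 1.08. For each of the 4 marks, both Sox5 and Sox6 were above the median of the long genes in both genotypes.

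At the upper annotated end of Sox5, its 5′ end, H3K4me3 and H3K27me3 overlapped in both genotypes with nearly equal widths. H3K4me3 spanned 637 bp in KO and 635 bp in WT, and H3K27me3 2332 bp and 2180 bp. An H3K27ac peak of 286 bp lay there in WT and none in KO. Away from that end, the widest KO H3K27me3 peak of the gene, of 3266 bp (143854572 to 143857837), met no WT peak. Another wide peak, of 1736 bp in KO and 1504 bp in WT, lay inside the gene and carried a KO-only H3K4me3 peak of 838 bp (144209997 to 144210834), with H3K27ac and H3K4me1 in both genotypes. The single promoter of Sox5 in the sequence table (143947107 to 143947356 without the transcribed bases) had no peak of any mark.

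Sox6 carried its promoter marks near the upper end, where H3K4me3 was wider in KO. H3K4me3 peaks of 681, 903 and 1012 bp lay there in KO, and peaks of 256, 255, 226 and 380 bp in WT. The widest H3K27me3 peaks of the gene in KO, of 2221 and 1457 bp, also lay there and overlapped WT peaks of 419, 363 and 1132 bp. A WT H3K27me3 peak of 843 bp (116033717 to 116034559) met no KO H3K27me3 peak and lay where KO had the H3K4me3 peak of 903 bp. The WT H3K4me3 peaks of 255 and 226 bp lay there too, so that WT had both marks at this place. H3K27ac was listed at the annotated ends in WT alone, with peaks of 138 bp at the upper and 143 bp at the lower end. Sox5 and Sox6 were the 2 genes of the 10 with H3K27ac within 1000 bp of an end in WT only, where the share of all genes was 5.88%, and none had it in KO only (2.01% of all genes). The median width of the whole WT H3K27ac list was 215 bp. These Sox6 peaks were narrower than that, and the Sox5 peak, of 286 bp, was wider.

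Inside Sox5 and Sox6, 41 regions carried H3K4me1 in at least 1 genotype. With H3K27ac taken as active and its absence as primed, 19 regions were active in both genotypes and 3 were primed in both. Of the others, 2 were active in KO and primed in WT, and 3 the reverse. In KO alone H3K4me1 was found at 9 regions, 7 of them primed and 2 active, and in WT alone at 5, 4 of them primed. Of all 59665 H3K4me1 regions of the lists, promoters included, 19.7% were in KO only and 19.4% in WT only. H3K4me3 lay on 6 of the 41 regions in KO but not in WT, and on 1 in WT but not in KO. Of all H3K4me1 regions, 10.1% had H3K4me3 in KO only and 0.858% in WT only. In Sox6, the regions at 115615542 to 115616129 and 115669498 to 115670112 had H3K4me1 and H3K27ac in both genotypes, and KO alone had H3K4me3 and H3K27me3 there. Of the 41 regions, 23 had H3K27ac in KO and 25 in WT. H3K27me3 lay on active regions at 8 sites in KO and 7 in WT. That share over all active regions of the lists, and the shares of the classes and of H3K27ac over all H3K4me1 regions, were not computed.

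**Figure D3:**
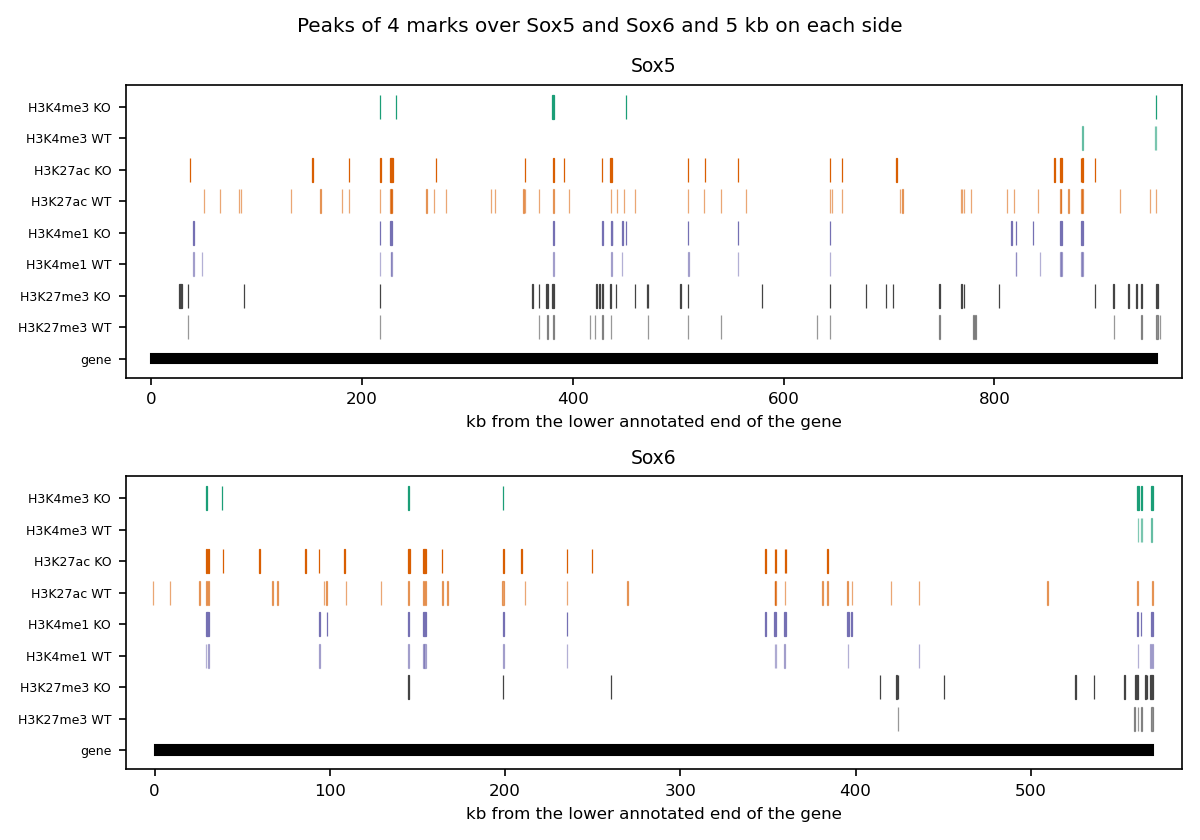
Peaks of the 4 marks over Sox5 and Sox6, with KO (dark) above WT (light) for each mark, the gene as a black bar, and distance in kb from its lower annotated end. Narrow peaks are drawn at the width of the line. H3K27me3 has 34 peaks in KO and 21 in WT over Sox5, and 14 and 5 over Sox6, while H3K27ac has more peaks in WT over both genes.

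Over all 10 genes together, covered length differed between KO and WT in the same direction as in the whole lists for each mark. H3K27me3 had 70 peaks and 48987 bp in KO, against 48 peaks and 26183 bp in WT, a ratio of covered length of 1.87, where the whole lists gave 1.905. H3K4me3 had 25 peaks in KO and 15 in WT, and its cover in KO was 1.93 times that in WT (1.46 in the whole lists). H3K27ac had 51 peaks in KO and 89 in WT, with a ratio of 0.789 (0.733). H3K4me1 had 40 peaks in KO and 42 in WT, with a ratio of 1.43 (1.19), which was 0.715 without Sox5 and Sox6. The share of KO H3K27me3 peaks that overlapped a WT peak was 48.6% (exact binomial interval at 95%, 36.4 to 60.8), as in the whole KO list at 48.6%. Such intervals cover counting error only and treat peaks as independent.

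By gene, H3K27me3 covered more bases in KO at 9 of the 9 genes with the mark in both genotypes, as did 77.5% of all such genes. At 7 of them the KO cover was at least 1.5 times that of WT, which held for 44.8% of 9460 genes. None had at least 1.5 times the cover in WT (7.45% of these genes). The median ratio was 2.01 over the 9 genes (1.02 at Sox8 to 2.76 at Sox2) and 1.40 over the 9460. For H3K4me3, 4 of 5 genes had at least 1.5 times the cover in KO, against 32.6% of genes, with a median ratio of 2.19 over the 5 and 1.26 over all. The exception was Sox4, at 1.47, and all 5 had more cover in KO, as did 78.9% of genes. None had 1.5 times more in WT (2.79%). For H3K27ac the ratios of the 5 genes ran from 0.547 at Sox11 to 1.68 at Sox9, with a median of 0.801 (0.833 over all genes). Cover was higher in KO at 2 of the 5, against 27% of genes, with 1 at least 1.5 times higher in KO (5.25%) and 1 in WT (26.8%). For H3K4me1 the ratio was above 1 at 4 of 5 genes (60.3% of genes), with 1, Sox6 at 1.67, at least 1.5 times higher in KO (19.5%) and none in WT (14.1%).

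Over the 8 short genes the number of H3K27me3 peaks was 22 in KO and 22 in WT. Their covered length was 20644 bp and 12913 bp, and their median width was 970.5 bp and 442.5 bp. Of those KO peaks 77.3% (54.6 to 92.2) overlapped a WT peak. Over Sox5 and Sox6 there were 48 H3K27me3 peaks in KO and 26 in WT. Of those KO peaks 35.4% (22.2 to 50.5) overlapped a WT peak, against 48.6% of all KO H3K27me3 peaks. For H3K27me3, the short genes thus had equal numbers of peaks, with a greater median width in KO. The median width of all H3K27me3 peaks in the lists was also greater in KO, at 425 bp against 358 bp in WT. The long genes had more H3K27me3 peaks in KO, 31 of them KO-only. The split into short and long genes was set by length, not by the marks.

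**Figure D4:**
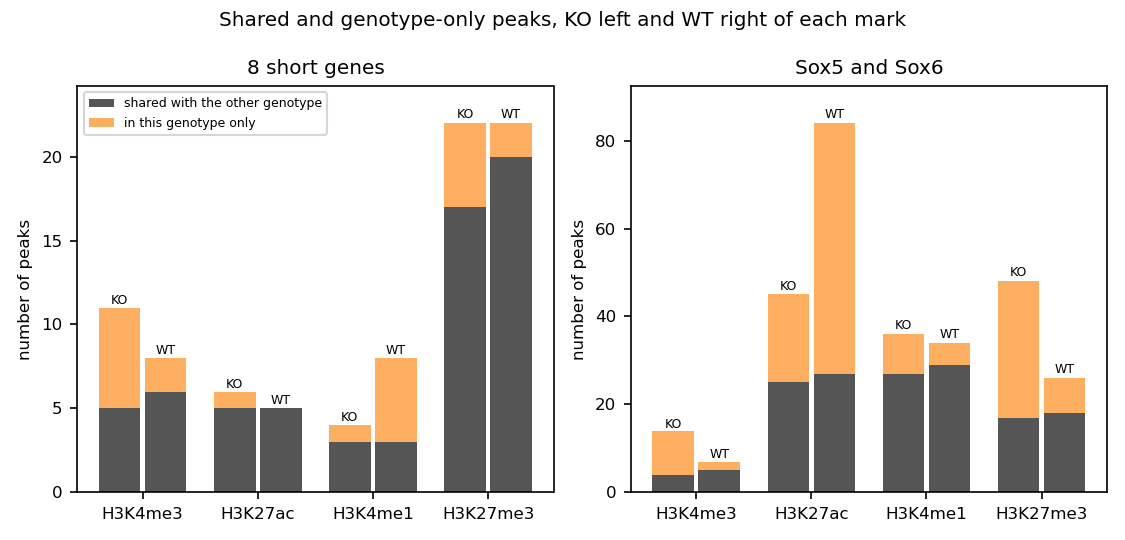
Number of peaks of each mark over the 8 short genes (left) and over Sox5 and Sox6 (right), with KO left of WT for each mark. The dark part of a bar counts peaks that overlap a peak of the other genotype and the light part those that do not: the 48 KO H3K27me3 peaks of Sox5 and Sox6 hold 31 KO-only peaks, and the 84 WT H3K27ac peaks hold 57 WT-only peaks.

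The WT-only share of H3K27ac at the long genes was near that of the whole list: 32.1% of the WT peaks over Sox5 and Sox6 overlapped a KO peak, against 37.0% of all WT H3K27ac peaks.

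At gene ends the genes were sorted by H3K4me3 and H3K27me3. In KO 5 genes had H3K27me3 alone within 1000 bp of an end (11.5% of all genes), 4 had both marks (31.2%) and 1, Sox4, had H3K4me3 alone (21.1%). In WT 4 had H3K27me3 alone (12.2% of all genes), 6 had both (25.6%) and none had H3K4me3 alone (20.4%). Sox4 and Sox8 were the genes whose state differed between the lists, Sox4 by a WT-only H3K27me3 peak and Sox8 by a WT-only H3K4me3 peak. Sox1, Sox2 and Sox8 had H3K4me1 at an end in WT only, where 9.52% of all genes did, and none had it in KO only (2.35%). These WT peaks were 215 to 292 bp wide.

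The SoxF genes, which mark endothelium, had more active cover than H3K27me3, as did Sox4, Sox11 and Sox6 in both genotypes and Sox5 in WT. H3K27me3 covered more than the active marks at 0 of 3 SoxF genes in either genotype. The share of all genes where it did was 20.3% in KO and 14.7% in WT. Sox17, an arterial factor, had 548 bp of H3K27me3 against 4191 bp of active marks in KO, and 476 bp against 3877 bp in WT. Sox18, of blood and lymphatic vessels, had no H3K27me3 and 2980 bp of active marks in KO and 2463 bp in WT, and Sox7 had 588 bp of H3K27me3 in KO and 155 bp in WT beside 3412 and 2893 bp of active marks. Among the other Sox genes, Sox21, a SoxB gene, had 3790 bp of H3K27me3 in KO and 2379 bp in WT. It also had H3K4me1, with 1589 bp in KO and 1212 bp in WT, and an H3K4me3 peak of 1160 bp in KO only. Sox12 and Sox13 had active marks at an end in both genotypes, and Sox15 had no H3K27me3 in either. Sox30 had 210 bp of H3K27me3 in KO and 610 bp in WT, a ratio of 0.344, and an H3K4me3 peak of 816 bp in KO only.

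Genes that work with these factors were mostly under H3K27me3 as well. Of 16 partner and target genes, 14 had H3K27me3 over the window in both genotypes, against 45.8% of all genes. At 11 of the 14 the KO cover was at least 1.5 times that of WT, against 44.8% of all genes with the mark in both. The 5 cartilage genes that Sox9 activates with Sox5 and Sox6 had H3K27me3 in both genotypes. Its cover was 4716 bp in KO and 1935 bp in WT at Col2a1 and 3612 bp and 424 bp at Col11a2. At the others it was 3433 and 1906 bp (Acan), 2122 and 1545 bp (Comp) and 403 and 244 bp (Col9a1). H3K27me3 alone was the state at the ends of 4 of the 5 cartilage genes in both genotypes, and Col9a1 had neither H3K4me3 nor H3K27me3 there. Among SoxC partners and targets, Tubb3, a neuronal tubulin, had 3574 bp of H3K27me3 in KO and 1323 bp in WT and no active mark, while Tead1, Tead2 and Tead4 had H3K4me3 at an end in both genotypes.

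Over the 8 lists, the gene with the nearest profile of covered percentages was Hmx3 for Sox1, Nr2e1 for Sox2, Msx2 for Sox14 and Osr2 for Sox9. For the active pair it was Marcks for Sox4 and Tapbp for Sox11. For the other members it was Gabbr2 for Sox5, Sh3gl2 for Sox6, Lamp5 for Sox8 and Slc22a7 for Sox10. The Euclidean distance was 0.182 percentage points for Slc22a7 and 4.03 for Tapbp, the lowest and the highest of the 10.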

How the data were processed

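The deposited values are peak positions and widths in bp, of the unit class other, in 1 list for each of 8 groups. The authors' deposited positions were taken as they stand, since the lists hold no score, height or p. Per the submitters' processing notes, the tools were MACS2 2.1.2.1, deepTools 3.1.1, SAMtools, Bowtie2 2.2.6, cutadapt 1.14 and Trim Galore 0.4.4, and the builds R64 (yeast) and mm10. Not given in the sources used here are each tool's role, the threshold for a peak, any spike-in scaling and how the 3 samples of a group were combined. No value per sample entered, the depth of each sample is unknown, and no test between KO and WT was run.

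The RefSeq table of GRCm38.p6, or mm10, gave 20665 protein-coding genes of chromosomes 1 to 19. Windows were the gene plus 5000 bp on each side, and cover was counted within the window. Peaks counted as shared where 1 bp or more lay in a peak of that mark in the opposite genotype, and otherwise as KO-only or WT-only. Alternatives varied the flank, the gene end, the overlap, the minimum width, the number of peaks kept and the inclusion of Sox5 and Sox6. A gene end meant within 1000 bp of either annotated end. Shares carry exact Clopper-Pearson intervals. The fold used for counts was 1.5. Python 3.11.15, numpy 2.4.6, pandas 2.3.3, scipy 1.17.1 and matplotlib 3.10.9 were used. All 10 genes, the other Sox genes and the partner lists were chosen with earlier results of these data known. By rule, all members were named, and for each the nearest gene by profile (Gm and Rik symbols passed over). The overlap and window code was tested on simulated lists and against an exhaustive search. Protein sequences were not used here, and Sox9 and Sox10 were not matched in the promoter table. Chromosomes other than 1 to 19 were not analysed here. Not all results on the partner genes are reported here.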

Additional observations from a re-analysis of the deposited data

How the results depend on the processing

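No paired analysis was possible because the lists hold no values per sample, and leaving out each replicate was not run for the same reason. Of 188 comparisons over 38 results, 33 moved and 2 reversed. The other 153 kept their direction and stayed within a tolerance, which was 1.5 times for a count or ratio and the interval at 95% for a share, so that their values can still differ. H3K27me3 cover was longer in KO at 9 of 9 genes with no flank, without narrow peaks and with equal numbers of peaks, and at 8 of 9 with flanks of 10000 bp, with Sox8 at 2192 bp in KO and 2255 bp in WT. With no flank the number of genes with at least 1.5 times the cover in KO was 6 rather than 7 (Sox9 at 1.30), and the peaks of H3K27me3 numbered 60 in KO and 35 in WT. With ends of 500 bp, 5 genes in WT had H3K27me3 alone and 5 had both marks.

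Without peaks under 200 bp, H3K4me3 peaks numbered 13 in KO, of which 61.5% were shared, H3K27ac peaks numbered 32 in KO and 45 in WT, and 1 gene had neither mark at an end in WT. With equal numbers of the widest peaks, H3K4me3 had 12 peaks in KO, 66.7% of them shared, H3K27ac had 45 in WT, 55.6% of them shared, and 61.7% of KO H3K27me3 peaks were shared. The ratio of H3K27ac cover, KO over WT, was then 1.05, against 0.789 with all peaks. With an overlap of 50% of both peaks, shares were 16.0% in KO and 26.7% in WT for H3K4me3, 35.3% and 20.2% for H3K27ac, and 30.0% and 45.8% for H3K27me3, with 57.1% in WT for H3K4me1. Without Sox5 and Sox6, peaks numbered 11 in KO and 8 in WT for H3K4me3, 6 and 5 for H3K27ac, 4 and 8 for H3K4me1, and 22 and 22 for H3K27me3. Shares were then 83.3% in KO and 100% in WT for H3K27ac, 77.3% and 90.9% for H3K27me3, and 37.5% in WT for H3K4me1, whose ratio of cover was 0.715. With 5′ ends only, for 8 genes with a strand, 2 genes had both marks in KO, 1 had neither in KO and 1 had neither in WT. The gene with neither was Sox5, whose single start in the promoter table lies inside the gene. This setting therefore did not cover the upper annotated end of Sox5, which had both marks in both genotypes. The overlap of 50% counts the same peaks under a stricter definition of shared, and the other settings of this paragraph leave out peaks, genes or gene ends by construction. No other cause was tested. Without depth or heights, a difference in peak number or width cannot be told apart from one in sequencing depth or peak calling.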
